A study of Homo sapiens with 22 samples.

Results

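The transcripts of 9 genes of RAS signalling and isocitrate metabolism were followed through RNA sequencing of HT1080, a human fibrosarcoma cell line. They were the RAS GTPases NRAS and HRAS, the isocitrate dehydrogenases IDH1 and IDH2, the ERK feedback inhibitors DUSP6, SPRY2 and SPRY4, and the ETS transcription factors ETV4 and ETV5. They were taken from the deposited table by gene symbol, and each symbol stood on 1 of its 60675 rows. The table held 22 libraries in 6 groups, all of HT1080 background. The untreated cells were wild-type (WT, 4 libraries) or carried 1 edited KDAC gene, changed at its own locus with Cas9 and a repair template. KDAC6H216A (4 libraries) carried a substitution in the first catalytic domain of KDAC6 (HDAC6), KDAC6H611A (4 libraries) a substitution in its second catalytic domain, and KDAC8H143A (4 libraries) a substitution in the catalytic domain of KDAC8 (HDAC8). The remaining groups were WT cells exposed for 2 days to 1 µM Tubastatin A, an inhibitor of KDAC6 (3 libraries), or to 5 µM PCI-34051, an inhibitor of KDAC8 (3 libraries). KDAC6H216A was a pool of 3 independently obtained lines, while no pooling is stated for the other edited lines, which were grown from single colonies. The WT cells are labelled as untreated and a vehicle control is not named, so effects of the inhibitor and of its solvent cannot be told apart. The study calls the replicates biological.

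RAS proteins are switched on by exchange factors acting downstream of receptor tyrosine kinases and are switched off by GTPase-activating proteins. Active RAS recruits RAF kinases, which activate MEK and then ERK. ERK in turn induces its own brakes, the phosphatase DUSP6 and the Sprouty proteins, as well as ETV4 and ETV5, so that the transcripts of these genes are widely read as a measure of ERK output. IDH1 in the cytosol and peroxisome and IDH2 in the mitochondrion convert isocitrate to 2-oxoglutarate and make NADPH. HT1080 is known for an activated NRAS allele and a mutant IDH1 allele, and mutant IDH1 makes 2-hydroxyglutarate, which can inhibit dioxygenases that use 2-oxoglutarate. The counts are summed over alleles, so mutant and normal transcripts were not separated here.

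All 9 are protein-coding genes on the minus strand. On GRCh38 GENCODE places NRAS at chr1:114704469-114716771, HRAS at chr11:532242-537321, IDH1 at chr2:208236229-208266074, IDH2 at chr15:90083045-90102477, DUSP6 at chr12:89347235-89352501, SPRY2 at chr13:80335976-80341126, SPRY4 at chr5:142310427-142326455, ETV4 at chr17:43527844-43579620 and ETV5 at chr3:186046314-186110318.

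Promoter sequence is shown for the RAS genes, which moved apart under the inhibitors, and for the feedback inhibitors with the clearest change (SPRY4) and the lowest level (DUSP6). Each line gives the 250 bases before the RefSeq start site on GRCh38.p14, written 5′ to 3′ on the strand of the gene, with matches to 3 motifs in capitals.
NRAS, chr1:114716772-114717021, minus strand: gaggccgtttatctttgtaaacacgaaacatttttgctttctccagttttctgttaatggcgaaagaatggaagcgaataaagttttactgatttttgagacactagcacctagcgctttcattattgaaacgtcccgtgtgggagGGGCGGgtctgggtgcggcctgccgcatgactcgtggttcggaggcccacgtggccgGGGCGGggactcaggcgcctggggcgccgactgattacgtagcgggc
HRAS, chr11:535577-535826, minus strand: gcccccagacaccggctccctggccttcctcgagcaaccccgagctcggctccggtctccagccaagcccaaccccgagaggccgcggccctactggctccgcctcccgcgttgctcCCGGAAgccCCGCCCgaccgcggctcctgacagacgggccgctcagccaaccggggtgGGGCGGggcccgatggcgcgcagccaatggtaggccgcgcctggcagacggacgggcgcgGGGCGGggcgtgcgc
SPRY4, chr5:142324248-142324497, minus strand: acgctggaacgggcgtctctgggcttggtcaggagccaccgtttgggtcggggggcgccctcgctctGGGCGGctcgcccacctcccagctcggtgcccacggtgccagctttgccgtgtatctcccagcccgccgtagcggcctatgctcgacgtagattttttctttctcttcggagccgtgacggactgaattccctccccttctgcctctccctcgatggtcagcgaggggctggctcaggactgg
DUSP6, chr12:89352502-89352751, minus strand: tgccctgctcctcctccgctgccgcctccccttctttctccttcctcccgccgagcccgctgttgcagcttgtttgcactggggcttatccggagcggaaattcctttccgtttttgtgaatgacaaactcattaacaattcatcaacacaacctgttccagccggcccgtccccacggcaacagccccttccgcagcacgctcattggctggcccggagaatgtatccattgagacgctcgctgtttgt
Capitals mark exact matches on either strand to the ETS core CCGGAA, the AP-1 motif TGANTCA or the GC box GGGCGG. The NRAS window held 2 GC boxes and no ETS core, and the HRAS window held 1 ETS core and 3 GC boxes. SPRY4 had 1 GC box, and no motif was found in the DUSP6 window. Among the others, the IDH1 windows held 1 and 3 GC boxes, the first of 3 SPRY2 windows held 1 ETS core and 2 GC boxes, and the IDH2 window held none. Of 35116 promoter windows of this length, 14.5% held the ETS core, 6.57% the AP-1 motif and 42.6% the GC box. The AP-1 motif was in no window of the 7 genes that had an entry, and ETV4 and ETV5 were the ones with no entry.

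Total counts ran from 5248953 to 29862665 per library, with 5248953 to 8998474 in WT cells, 11010719 to 17170473 in KDAC8H143A and 24315766 to 29862665 with the inhibitors. Mitochondrial rRNA took 20.8% to 23.9% of the counts in WT cells, 0.195% to 15.1% in KDAC6H216A, 0.173% to 37.98% in KDAC6H611A and at most 0.0259% in the other groups. Depth and the share of this rRNA therefore changed together with the KDAC8 edit and with both treatments, and cannot be told apart from them. KDAC6H216A replicate 1 stood apart from its group with 0.195% mitochondrial rRNA and 6837390 counts. Calls of the genes above in this line against WT are given with and without it. The group means, the order of groups and the fold changes between the KDAC6 lines include it. KDAC6H611A replicate 4 likewise held 0.173%, where the others of its group held 21.0% or more. The summed level of 10 mesenchymal markers was 3035 to 8122 CPM in every library, and VIM was at 2079 CPM or more. Most of that sum was VIM, CD44 and FN1, at 175 CPM or more each, while the others reached 34.2 CPM at most. By group, 5 to 8 of the 10 were at 1 CPM or more in every library. S100A4, THY1 and NT5E stayed at or below 3.26 CPM, and COL1A2 at or below 0.242 CPM in the edited lines. The summed level of 12 markers of epithelial, blood, endothelial, muscle and neural crest cells was at most 2.17 CPM. Levels are given as CPM, the count of a gene over the scaled library total, scaled with TMM factors over all 22 libraries, as mean ± SD. Fold changes were fitted on counts with factors set anew for each pair of groups, so they can differ from the ratio of the levels printed beside them. Called, rose and fell refer to an adjusted p below 0.01 in edgeR's quasi-likelihood test, adjusted over all genes tested.

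In WT cells 8 of the 9 genes were well expressed and DUSP6 was not. Per kilobase of the canonical transcript, ETV5 had the highest level, 25.1 ± 2.13 CPM per kb (n = 4). HRAS (21.1 ± 0.625), SPRY2 (20.7 ± 0.936), IDH1 (19.1 ± 0.982), NRAS (17.5 ± 1.42), ETV4 (13.7 ± 1.24) and SPRY4 (10.4 ± 0.976) followed on the same scale. IDH2, at 4.08 ± 0.700 CPM per kb, was below IDH1 in each library of each group, with an IDH1 to IDH2 ratio of 2.74 to 7.72. DUSP6, the ERK-specific phosphatase, was at 0.826, 0.623, 0.378 and 1.01 CPM in the WT libraries, which is 3 to 7 counts each. It held 0.387 to 0.999 CPM in KDAC6H216A, 0.132 to 0.362 CPM in KDAC6H611A and 0.0710 to 0.652 CPM in KDAC8H143A, with 8 and 16.2 counts summed over the last 2 of these groups. With the inhibitors it was at 0.426 to 0.985 CPM. It was tested only between the inhibitors, having too few counts for the other fits of 2 groups, and in the fit of all groups 0 of 15 pairs of groups passed. In that fit WT cells were above KDAC6H611A by 1.52 on the log2 scale (95% interval 0.26 to 2.79, adjusted p = 0.0899) and above KDAC8H143A by 1.24 (95% interval 0.11 to 2.36, adjusted p = 0.0495). Against PCI-34051 the log2 difference was -1.73 for KDAC6H611A (adjusted p = 0.0164) and -1.44 for KDAC8H143A (adjusted p = 0.0118). No library lay above 1.01 CPM, while SPRY2 and SPRY4 were at 33.7 CPM or more in every library.

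**Figure D1:**
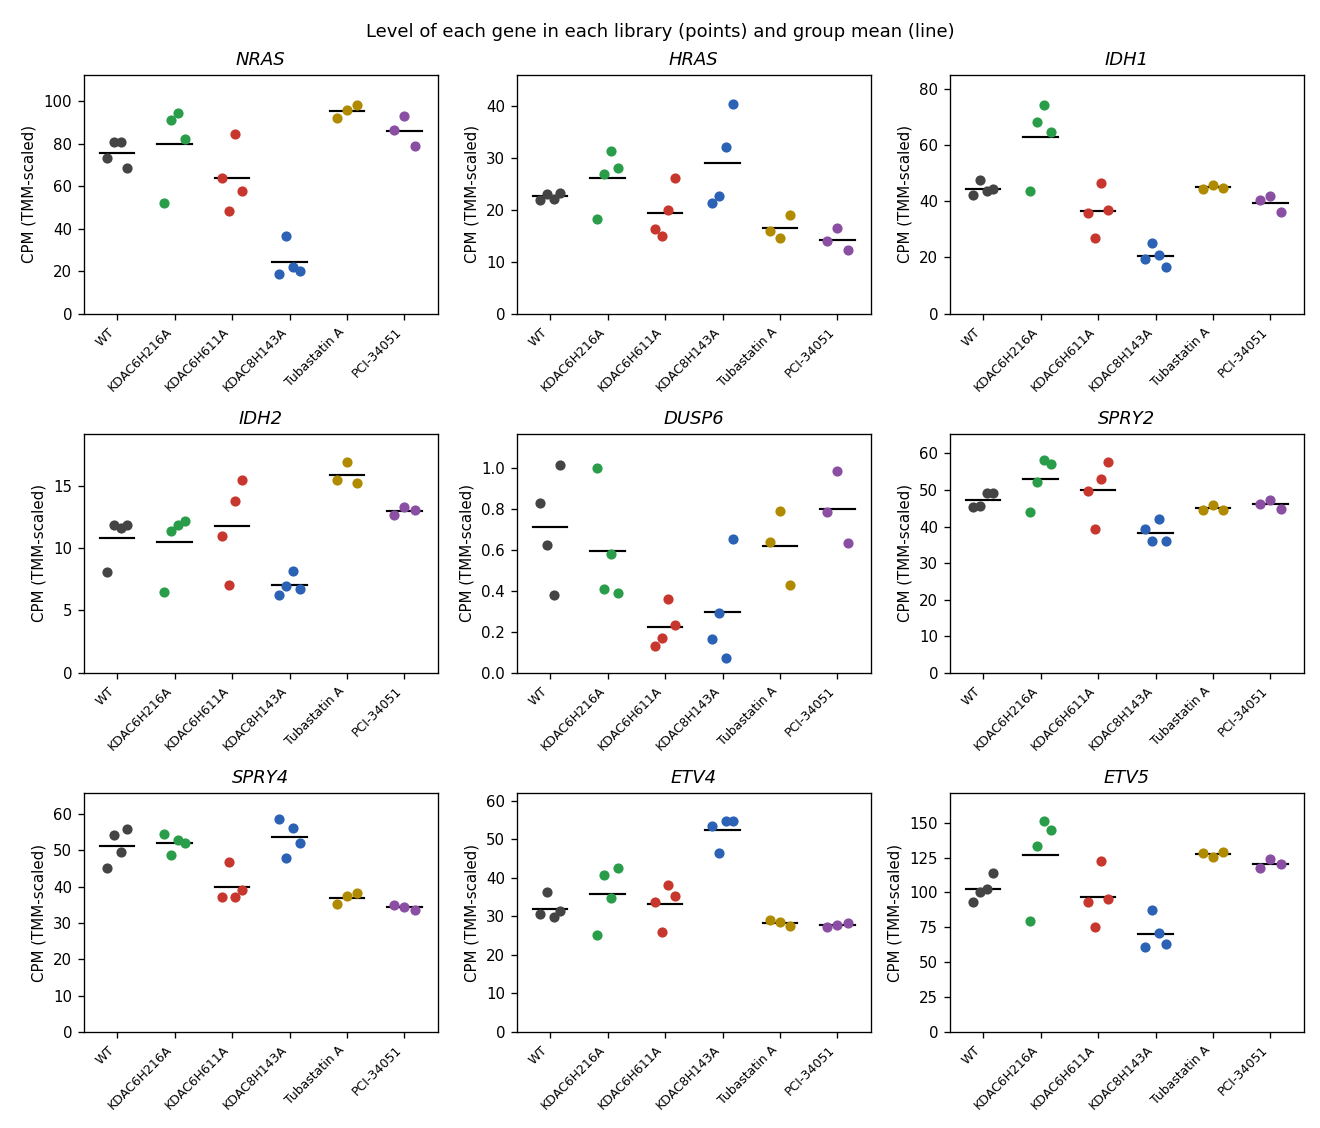
Level of each of the 9 genes (CPM scaled with TMM factors, linear axis from 0) in each of the 22 libraries by group; points are libraries and lines are group means. NRAS is lowest in the 4 KDAC8H143A libraries (18.7 to 36.7 CPM), SPRY4 is lower in all inhibitor libraries (33.7 to 38.1 CPM) than in all WT libraries (45.2 to 55.8 CPM), and DUSP6 stays at or below 1.01 CPM.

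The line with catalytically inactivated KDAC8 was compared with WT cells first. The study describes its KDAC8 protein as slightly below WT cells though easily detected, and its KDAC6 expression by qPCR as slightly lower. An unintended base inserted in an intron is also reported, with no apparent effect. Loss of activity and other differences of the edited line cannot be told apart here. Of the 8 genes tested, 5 were called, ETV4 higher and NRAS, IDH1, IDH2 and ETV5 lower. This count is to be read against 58.5% of all 16101 genes tested (31.6% higher, 26.9% lower), so the share of the 8 genes called was close to that of genes at large. Scaling to the total count alone, which raised the median of all genes by 0.29 on the log2 scale, also called 5 genes but split them otherwise, with HRAS, SPRY4 and ETV4 higher and NRAS and IDH1 lower, where 55.7% of all genes were called (40.3% higher, 15.5% lower). The median log2 fold change was -0.37 over the 8 genes and 0.08 over all genes tested.

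NRAS fell most. Its level was 73.1, 80.9, 80.7 and 68.4 CPM in the WT libraries and 18.7, 36.7, 21.9 and 19.9 CPM in the KDAC8H143A libraries. All KDAC8H143A libraries were below all WT libraries, with replicate 2, the deepest of its group, closest to them. The log2 fold change was -1.58 ± 0.188 (SE, adjusted p = 2.13e-05), a 3.00-fold lower level. IDH1 was at 42.1, 47.5, 43.5 and 44.2 CPM in WT cells and 19.3, 25.2, 20.7 and 16.5 CPM in KDAC8H143A, again without overlap. Its log2 fold change was -1.06 ± 0.127 (adjusted p = 2.20e-05). Both falls passed in 19 of 19 alternative settings, NRAS between -1.92 and -0.79 and IDH1 between -1.25 and -0.60. The settings counted here and below include the main fit read at a looser threshold, which a called gene passes by definition. As the libraries were made from whole cultures, a lower level per cell and fewer cells with the transcript cannot be told apart.

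IDH2, the mitochondrial counterpart, was at 8.05, 11.8, 11.6 and 11.9 CPM in WT cells and 6.25, 6.96, 8.17 and 6.68 CPM in KDAC8H143A. The groups overlapped by WT replicate 1, and the log2 fold change was -0.59 ± 0.165 (adjusted p = 0.00727). The call was lost in 6 of 19 settings, under total count scaling (-0.29), with no filter on low counts (-0.56), without KDAC8H143A replicate 1 (-0.53) and without WT replicate 2, 3 or 4 (-0.56, -0.57 and -0.56). ETV5 fell from 93.3, 100, 103 and 114 CPM to 60.7, 87.3, 71.0 and 63.1 CPM, a log2 fold change of -0.49 ± 0.121 (adjusted p = 0.00328), which did not pass without WT replicate 4 (-0.45) or KDAC8H143A replicate 1 (-0.42), nor under total count scaling (-0.19). ETV4, the other ETS factor, went the opposite way, from 30.6, 36.3, 29.9 and 31.4 CPM to 53.4, 46.5, 54.7 and 54.8 CPM. The log2 fold change of ETV4 was 0.76 ± 0.106 (adjusted p = 6.63e-05), but it was -0.12 (adjusted p = 0.295) after correction for GC content and length. The ratio of ETV5 to ETV4 per kb was 1.58 to 2.08 in WT libraries and 0.651 to 1.07 in KDAC8H143A libraries. The ETV4 gene is overlapped over its whole annotated length by DHX8, an RNA helicase gene on the other strand, whose level fell in this line (log2 fold change -0.36, adjusted p = 0.00268). Counts of ETV4 that were not whole numbers, left when reads are divided among transcripts, occurred in 4 libraries, which were the 4 of KDAC8H143A. Strand use in the counting is not given in the sources used here, and whether reads of the pair were exchanged was not tested.

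HRAS, SPRY2 and SPRY4 were not called in KDAC8H143A. HRAS was at 21.9, 22.9, 22.1 and 23.3 CPM in WT cells and spread from 21.2, 22.5 and 32.0 to 40.3 CPM in KDAC8H143A, with a log2 fold change of 0.41 (95% interval -0.00084 to 0.83, adjusted p = 0.0698). Under total count scaling HRAS passed as higher (0.69, adjusted p = 0.00436). SPRY2 lay at 45.4 to 49.2 CPM in WT cells and 35.9 to 42.0 CPM in KDAC8H143A, without overlap, with a log2 fold change of -0.25 (95% interval -0.46 to -0.044, adjusted p = 0.0329) that was 0.033 under total count scaling. For SPRY4 the log2 fold change was 0.11 (95% interval -0.12 to 0.35, adjusted p = 0.349), and under total count scaling it passed at 0.40.

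The direction of change in this line ran with base composition across the transcriptome. Of 10 equal bins of GC content in the canonical transcript, the lowest had a median log2 fold change of -0.88 and the highest 1.28. NRAS and IDH1 have transcripts of 37.4% and 41.8% GC, and ETV4 and HRAS of 60.6% and 64.3% GC. After a smooth correction for GC content and length, NRAS was still lower, by less (-0.79 ± 0.116, adjusted p = 8.59e-05), as was IDH1 (-0.60 ± 0.0909, adjusted p = 0.000105). With it, HRAS turned from 0.41 to a called fall, opposite to its call under total count scaling, of -0.74 ± 0.140 (adjusted p = 0.000614) and IDH2 went to -1.15 ± 0.157 (adjusted p = 4.92e-05). SPRY4 turned to -0.30 ± 0.0882 (adjusted p = 0.0102), and ETV5 stayed at -0.58 ± 0.109 (adjusted p = 0.00057). Under this correction 5 of the 8 genes were called, all of them lower, where 48.7% of all genes were called (21.4% higher, 27.3% lower). What gives rise to the gradient was not tested.

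**Figure D2:**
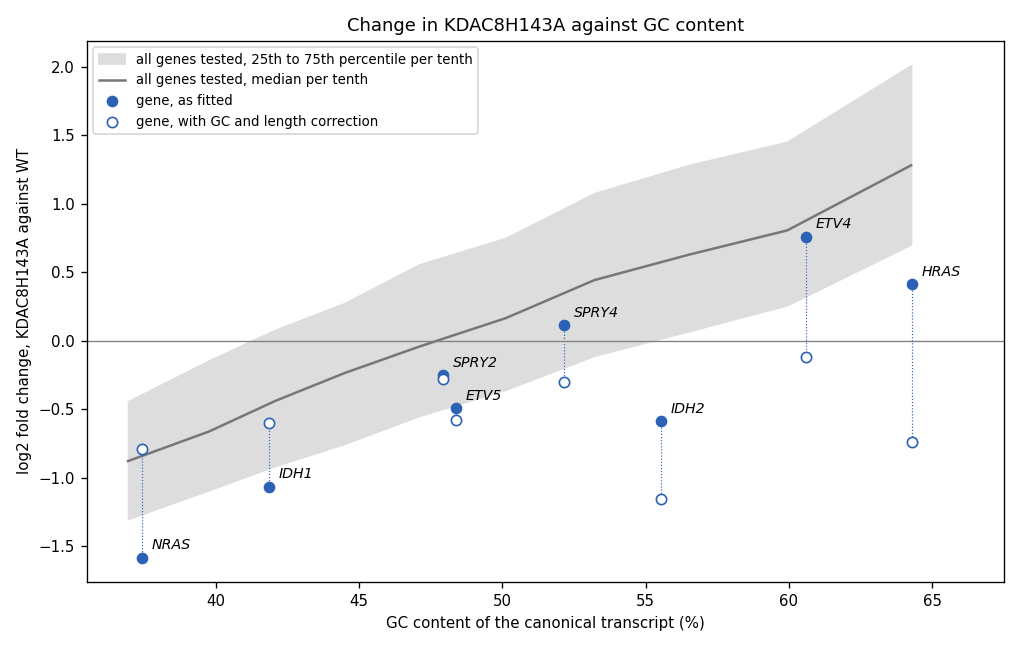
Log2 fold change of 8 genes in KDAC8H143A against WT (vertical axis) by GC content of the canonical transcript in percent (horizontal axis), as fitted (filled) and with correction for GC content and length (open), over the median and the 25th to 75th percentiles of all genes tested in 10 bins of GC content. The grey median climbs from -0.88 to 1.28; NRAS moves from -1.58 to -0.79 and HRAS from 0.41 to -0.74 with the correction, which removes the rise of ETV4.

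Inhibition was examined next. With Tubastatin A, 7 of the 8 genes tested were called against untreated WT cells, NRAS, IDH2 and ETV5 higher and HRAS, SPRY2, SPRY4 and ETV4 lower. Of all 15246 genes tested, 57.9% were called (29.3% higher, 28.6% lower). With PCI-34051, 4 of 8 genes were called, HRAS, IDH1, SPRY4 and ETV4, all lower, against 51.1% of all 15346 genes tested (25.5% higher, 25.6% lower). These splits rest on the TMM scale. Scaling to the total count alone raised the median of all genes by 0.35 with Tubastatin A and 0.39 with PCI-34051. On that scale NRAS (0.57), IDH1 (0.25), IDH2 (0.76) and ETV5 (0.55) were higher with Tubastatin A and SPRY4 was lower, where 64% of all genes were called (51.9% higher, 12.1% lower). With PCI-34051 NRAS (0.47), IDH2 (0.53), SPRY2 (0.25) and ETV5 (0.52) were higher on it and HRAS and SPRY4 lower, where 61.1% were called (51.4% higher, 9.62% lower). The correction for GC content and length left 1 of the 8 genes higher and 5 lower with Tubastatin A, against 56.8% of all genes (26.7% higher, 30% lower), and 0 higher and 4 lower with PCI-34051, against 50.8% (23.5% higher, 27.4% lower). Both treatments were compared with the same 4 WT libraries. The size of the changes was moderate, between -0.60 and 0.41 with Tubastatin A and between -0.77 and 0.14 with PCI-34051 on the log2 scale. In a fit with 1 estimate of the spread over all 6 groups, SPRY4 alone of the 8 genes passed in each treatment. The share of all genes that passed in that fit is not given.

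SPRY4, a Sprouty protein that restrains RAS and RAF activation, fell with both inhibitors. Its level was 45.2, 54.2, 49.6 and 55.8 CPM in WT libraries, 35.1, 37.4 and 38.1 CPM with Tubastatin A, and 34.9, 34.3 and 33.7 CPM with PCI-34051. No treated library reached the lowest WT library. The log2 fold change was -0.60 ± 0.0601 with Tubastatin A (adjusted p = 5.28e-08) and -0.68 ± 0.0632 with PCI-34051 (adjusted p = 5.76e-08). It passed in 18 of 18 alternative settings in each treatment, ranging from -0.64 to -0.24 and from -0.73 to -0.30, with the total count alone at the upper end. SPRY2, its paralog, was at 44.5, 45.9 and 44.5 CPM with Tubastatin A, of which 2 lay just below the WT range (45.4 to 49.2 CPM). Its log2 fold change of -0.19 ± 0.0523 (adjusted p = 0.00387) was 0.16 under total count scaling and passed in 8 of 18 settings. With PCI-34051 SPRY2 was not called (-0.14, 95% interval -0.25 to -0.018). The SPRY2 to SPRY4 ratio per kb was 1.80 to 2.16 in WT libraries, 2.51 to 2.72 with Tubastatin A and 2.84 to 2.95 with PCI-34051.

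HRAS fell and NRAS did not. HRAS was at 15.8, 14.4 and 19.0 CPM with Tubastatin A and 13.9, 16.5 and 12.1 CPM with PCI-34051, below the WT libraries (21.9 to 23.3 CPM) in each case. The log2 fold change of HRAS was -0.57 ± 0.0938 with Tubastatin A (adjusted p = 2.59e-05) and -0.77 ± 0.101 with PCI-34051 (adjusted p = 4.05e-06). It kept its direction in 18 of 18 settings for either inhibitor and passed in 16 and 17 of them. NRAS was at 92.2, 95.7 and 98.3 CPM with Tubastatin A, above every WT library (68.4 to 80.9 CPM). Its log2 fold change was 0.21 ± 0.0525 (adjusted p = 0.00136), and with correction for GC content and length it was 0.014 (adjusted p = 0.819). With PCI-34051 NRAS was at 86.6, 92.9 and 78.8 CPM, which overlapped WT cells (0.08, 95% interval -0.052 to 0.22, adjusted p = 0.277). The ratio of NRAS to HRAS per kb within a library needs no scaling between libraries. It was 0.727 to 0.905 in WT cells, 1.28 to 1.64 with Tubastatin A, 1.40 to 1.61 with PCI-34051 and 0.122 to 0.403 in KDAC8H143A, and these ranges of the treated and KDAC8H143A libraries lay on opposite sides of WT. In KDAC8H143A the correction for GC content and length brought the fold changes of NRAS and HRAS to -0.79 and -0.74, which are nearly equal. The ratios were formed after the values were seen and are given as descriptions.

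**Figure D3:**
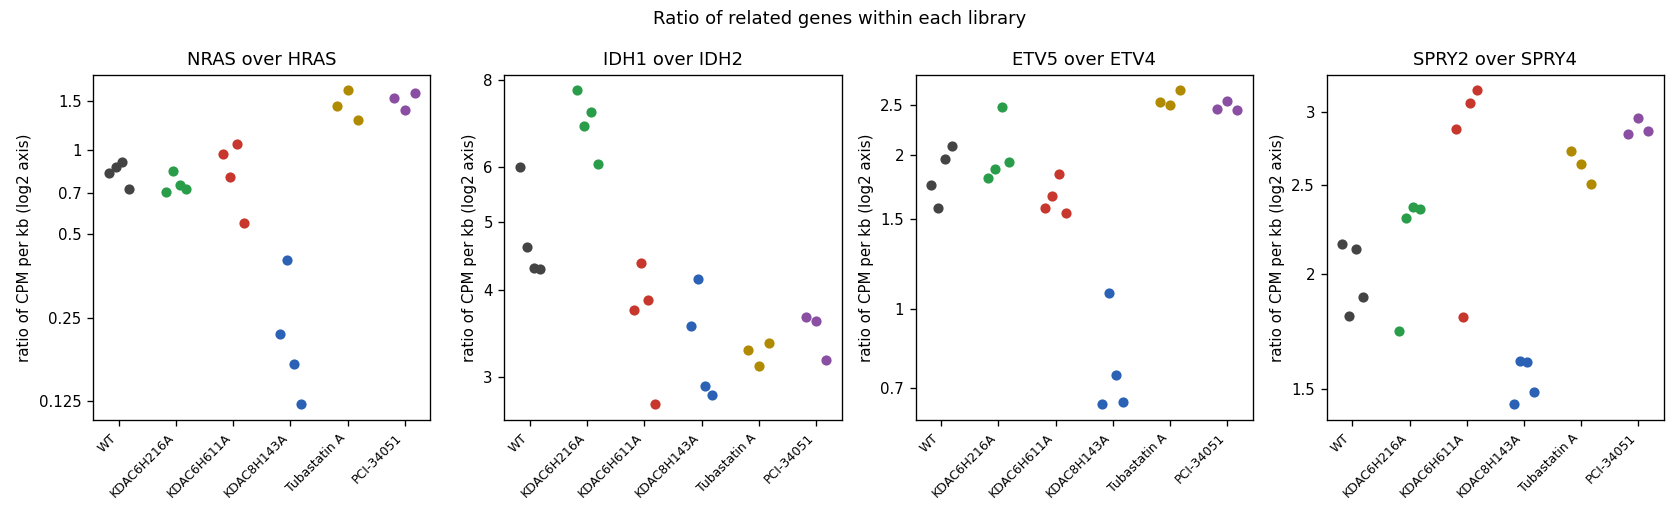
Ratio of CPM per kb of NRAS to HRAS, IDH1 to IDH2, ETV5 to ETV4 and SPRY2 to SPRY4 within each library (log2 axis), by group; each point is a library. NRAS over HRAS lies at 0.727 to 0.905 in WT, at 1.28 or more in the inhibitor libraries and at 0.403 or less in KDAC8H143A; the ETV5 over ETV4 and SPRY2 over SPRY4 ratios show the same order of these groups. The ratios are not corrected for GC content and length; with that correction the fold changes in KDAC8H143A were alike within the NRAS and HRAS pair (-0.79 and -0.74) and the SPRY2 and SPRY4 pair (-0.28 and -0.30).

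Of the ETS factors, ETV4 was lower with both inhibitors on the TMM scale. Its levels of 29.0, 28.6 and 27.6 CPM with Tubastatin A and 27.3, 27.8 and 28.2 CPM with PCI-34051 were all below the lowest WT library (29.9 CPM), by a small margin. The log2 fold changes were -0.29 ± 0.0700 (adjusted p = 0.00116) and -0.31 ± 0.0719 (adjusted p = 0.00125), and under total count scaling they were 0.060 and 0.079. Neither passed without WT replicate 2 (-0.22 and -0.24), the WT library with the most ETV4, with no filter on low counts (-0.20 and -0.22) or in the fit of all 6 groups. DHX8, on the opposite strand, fell by similar amounts, -0.22 and -0.25 (adjusted p = 0.000123 and 0.000487). ETV5 was at 129, 125 and 129 CPM with Tubastatin A and 117, 124 and 120 CPM with PCI-34051, above all WT libraries (93.3 to 114 CPM). It was called with Tubastatin A (0.20 ± 0.0539, adjusted p = 0.00319) and not with PCI-34051 (0.13, 95% interval 0.012 to 0.25, adjusted p = 0.0521). With Tubastatin A the call of ETV5 did not pass without WT replicate 2 (0.19) or Tubastatin A replicate 1 (0.19), after correction for GC content and length (0.16, adjusted p = 0.0122) or in the fit of all 6 groups (0.31). DGKG, a diacylglycerol kinase gene whose annotation runs into ETV5 on the same strand, rose by 1.36 and 1.48 on the log2 scale (adjusted p = 1.78e-09 and 1.3e-08), from 6.08 CPM in WT cells. Whether reads of DGKG entered the ETV5 count was not tested.

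The isocitrate dehydrogenases differed between the inhibitors in their calls. IDH1 was at 44.2, 45.8 and 44.5 CPM with Tubastatin A, within the WT range of 42.1 to 47.5 CPM, and its log2 fold change was -0.10 (95% interval -0.21 to 0.0088, adjusted p = 0.0956). With PCI-34051 it was at 40.3, 41.9 and 35.9 CPM, all below WT cells, and the log2 fold change was -0.27 ± 0.0640 (adjusted p = 0.00134), turning to 0.12 under total count scaling and not passing without WT replicate 2 (-0.24), with no filter (-0.19) or in the fit of all 6 groups (-0.17). IDH2 rose with Tubastatin A to 15.4, 16.9 and 15.2 CPM from 8.05 to 11.9 CPM in WT cells (0.41 ± 0.104, adjusted p = 0.0019), and passed in 17 of 18 settings. With PCI-34051 IDH2 was at 12.6, 13.3 and 13.0 CPM, above every WT library by a small margin, and was not called (0.14, 95% interval -0.099 to 0.38, adjusted p = 0.297).

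The inhibitors were also compared with each other, at their different doses. None of 9 genes was called, where 5.65% of 18409 genes were (3.45% higher, 2.2% lower). At an unadjusted p below 0.05 there were 3, and DESeq2 called 0. IDH2 was higher with Tubastatin A by 0.27 (95% interval 0.094 to 0.45, adjusted p = 0.0418) and IDH1 by 0.17 (95% interval 0.055 to 0.28, adjusted p = 0.0488). The interval of the difference was -0.020 to 0.19 for SPRY4, -0.044 to 0.43 for HRAS, -0.10 to 0.14 for ETV4 and -1.18 to 0.40 for DUSP6.

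**Figure D4:**
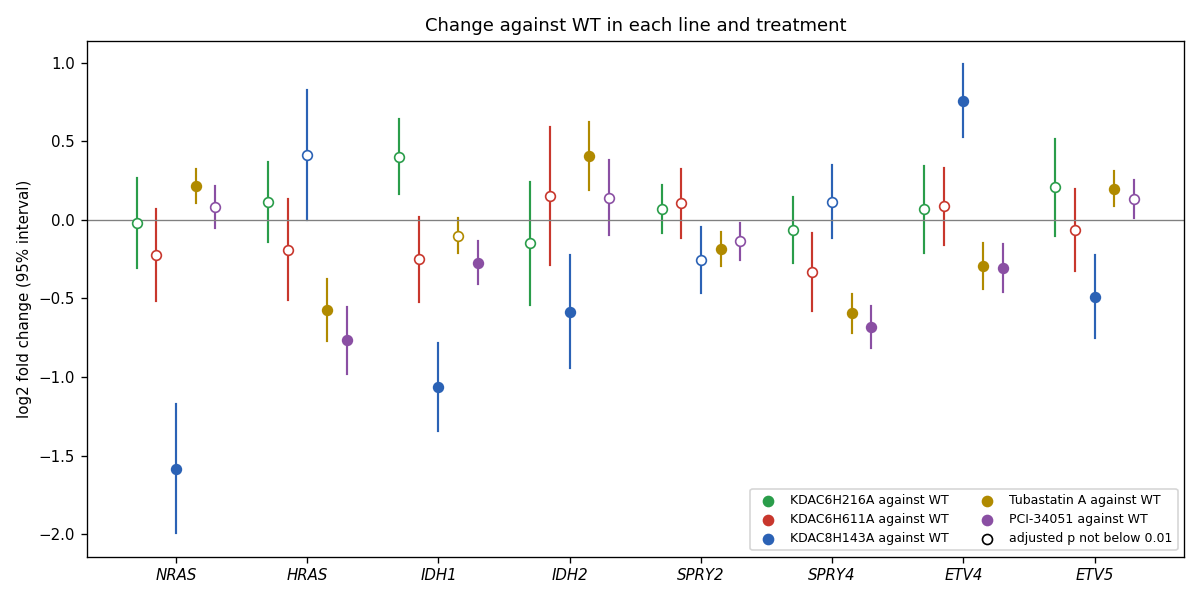
Log2 fold change against WT with its 95% interval for 8 genes in 5 comparisons (colours); filled points passed an adjusted p of 0.01 in edgeR and open points did not. NRAS and IDH1 in KDAC8H143A (-1.58 and -1.06) and the falls of HRAS and SPRY4 with both inhibitors (-0.57 to -0.77) and of IDH2 in KDAC8H143A (-0.59) stand farthest below 0; under total count scaling the inhibitor points of IDH1, SPRY2 and ETV4 move above 0.

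The KDAC6 lines showed few calls. For KDAC6H216A the study describes KDAC6 by qPCR as slightly lower, with a protein level to match, and no significant change in RNA sequencing. Loss of activity and lower expression cannot be told apart in that line. In KDAC6H216A 0 of 8 genes were called by edgeR, with 1 gene at an unadjusted p below 0.05 and 0 by DESeq2, where 0.834% of all 14500 genes tested were called (0.214% higher, 0.621% lower). IDH1 had the largest change, at 43.7, 68.2, 74.3 and 64.4 CPM against 42.1 to 47.5 CPM in WT cells, a log2 fold change of 0.40 (95% interval 0.16 to 0.64, adjusted p = 0.103). Replicate 1 gave the lowest value of the group for NRAS (52.2 against 82.1 to 94.4 CPM), HRAS (18.2 against 26.8 to 31.3 CPM), IDH1, IDH2, SPRY2, ETV4 and ETV5. Without it 3813 genes were called in place of 121, and among the 8 genes IDH1 (0.50) and ETV5 (0.34) passed. The gain in calls was transcriptome-wide and not particular to IDH1 and ETV5. SPRY4 lay at 48.7 to 54.5 CPM, inside the WT range, with an interval of -0.27 to 0.14.

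In KDAC6H611A, again, 0 of 8 genes were called, with 1 at an unadjusted p below 0.05 and 0 by DESeq2, where 12.3% of 14725 genes tested were called (6.08% higher, 6.24% lower). Those 1814 genes became 2908 without KDAC6H611A replicate 2, 1125 without WT replicate 2 and 1122 without WT replicate 3. Replicate 4, with little mitochondrial rRNA, left 1546 genes and 0 of the 8 when it was taken out. SPRY4 came closest. It was at 37.0, 46.8, 37.1 and 39.1 CPM against 45.2 to 55.8 CPM in WT cells, with 3 of 4 libraries below all WT libraries. The log2 fold change was -0.33 (95% interval -0.58 to -0.085, adjusted p = 0.053). It passed without KDAC6H611A replicate 2 (-0.45) and in the fit of all 6 groups (-0.36). NRAS was at 48.5 to 84.8 CPM (-0.22, 95% interval -0.51 to 0.067), IDH1 at 26.8 to 46.4 CPM (-0.25, 95% interval -0.52 to 0.018) and ETV5 at 75.5 to 123 CPM (-0.062, 95% interval -0.32 to 0.20). Next to ETV5, which was not called, DGKG rose to 19.9 CPM (log2 fold change 1.74, adjusted p = 5.28e-06).

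Between KDAC6H611A and KDAC6H216A 0 of 8 genes were called, with 2 at an unadjusted p below 0.05 and 1 by DESeq2, where 9.93% of 14961 genes tested were (4.61% higher, 5.31% lower). Those 1485 genes became 3041 without KDAC6H216A replicate 1 and 772 to 912 without any 1 of its other replicates or of KDAC6H611A replicates 1 and 4. IDH1 was 0.68 lower in KDAC6H611A on the log2 scale (95% interval -1.03 to -0.34, adjusted p = 0.0116). It passed in 7 of 19 alternative settings, among them the same fit read at 0.05, and was always lower. SPRY4 was 0.29 lower there, and its libraries did not overlap between these lines (37.0 to 46.8 against 48.7 to 54.5 CPM, adjusted p = 0.143).

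Over the 6 groups the order of the mean levels was read in a fit of all 22 libraries, in which 15 pairs of groups were tested for each gene. Neither the levels nor this fit were corrected for GC content and length. With that correction, the log2 fold changes in KDAC8H143A against WT were -0.74 for HRAS, -0.12 for ETV4 and -0.30 for SPRY4. The high ranks of KDAC8H143A for these genes are thus given for the uncorrected scale, and ranks over the 6 groups with the correction were not computed. SPRY4 passed in 9 pairs, IDH1 in 7, NRAS and ETV4 in 5, ETV5 and IDH2 in 4, HRAS in 3, SPRY2 in 2 and DUSP6 in 0. The share of all genes that passed in each pair is not given, so these counts do not set the genes apart from genes at large. The mean of NRAS fell in the order Tubastatin A (95.4 ± 3.06 CPM, n = 3), PCI-34051 (86.1 ± 7.08), KDAC6H216A (80.0 ± 19.2), WT (75.8 ± 6.12), KDAC6H611A (63.7 ± 15.4) and KDAC8H143A (24.3 ± 8.39), and only the last step passed (adjusted p = 2.62e-06). IDH1 ran from KDAC6H216A (62.6 ± 13.3 CPM) through Tubastatin A, WT, PCI-34051 and KDAC6H611A (36.5 ± 8.02) to KDAC8H143A (20.4 ± 3.63), and again only the last step passed (adjusted p = 7.09e-05). SPRY4 was highest in KDAC8H143A (53.6 ± 4.67 CPM), KDAC6H216A (52.0 ± 2.43) and WT (51.2 ± 4.79), then lower in KDAC6H611A (40.0 ± 4.63), Tubastatin A (36.8 ± 1.58) and PCI-34051 (34.3 ± 0.624). The step from WT to KDAC6H611A passed for SPRY4 (adjusted p = 0.00969), and no other neighbours in its order did. For ETV4 the step from KDAC8H143A (52.4 ± 3.94 CPM) to KDAC6H216A (35.8 ± 7.79) passed (adjusted p = 0.000716), with KDAC6H611A, WT, Tubastatin A and PCI-34051 following down to 27.8 ± 0.452 CPM. HRAS ran from KDAC8H143A (29.0 ± 8.94 CPM) to PCI-34051 (14.2 ± 2.17), IDH2 from Tubastatin A (15.8 ± 0.898) to KDAC8H143A (7.01 ± 0.824), SPRY2 from KDAC6H216A (52.9 ± 6.41) to KDAC8H143A (38.3 ± 2.91) and ETV5 from Tubastatin A (128 ± 1.91) to KDAC8H143A (70.5 ± 12.0), and in these 4 genes no neighbours in the order passed.

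Genes whose log2(CPM + 1) followed each gene most closely over the 22 libraries were listed among 11565 genes with a mean of at least 5 CPM. The correlations are across libraries that share group, depth and base composition, and are given as descriptions. For NRAS they were CFL2, CPNE3 and EIF5A2 (Pearson r of 0.994, 0.991 and 0.991), and for IDH1 MORF4L2, ZNF146 and DHX9 (0.978, 0.978 and 0.977). HRAS was followed by CAMSAP1, IPO4 and DNMT1 (0.932, 0.928 and 0.920), and IDH2 by HSP90AA1, HLA-E and SLC25A6 (0.960, 0.960 and 0.953). For SPRY4 they were SH3TC2, IQGAP3 and CNTRL (0.946, 0.932 and 0.924) and for SPRY2 TMED1, PGD and LMAN2 (0.950, 0.945 and 0.939). ETV4 was followed by DAB2IP, GFER and BAP1 (0.953, 0.938 and 0.938) and ETV5 by SRPR, FBXW11 and CAP1 (0.976, 0.971 and 0.969). DUSP6, with few counts, reached 0.776 at most, with EIF3J.

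The wider pathway was described with 10 gene lists, read against the share of all genes called given above for each comparison. Counts of higher and lower genes are on the TMM scale, and total count scaling moved them upward with the inhibitors, to 13 higher and 0 lower of 13 cascade genes with each, 12 and 0 of 16 genes of the citric acid cycle with each, and 2 and 1 of 5 (Tubastatin A) or 3 and 1 of 5 (PCI-34051) genes for IDH3 and 2-hydroxyglutarate enzymes. In KDAC8H143A the same scaling gave 3 higher and 3 lower of 10 ligands, 1 and 0 of 9 activators and adaptors, 1 and 3 of 9 NADPH-producing enzymes and 0 and 7 of 16 genes of the citric acid cycle. Receptor tyrosine kinases and growth factors, which act upstream of RAS, formed lists of 14 and 17 genes. Among receptors tested, 6 of 11 were higher and 2 lower with each inhibitor. PDGFRB, a receptor of platelet-derived growth factors, rose from 3.83 ± 0.878 CPM to 20.2 ± 1.35 with Tubastatin A (log2 fold change 2.32, adjusted p = 1.79e-11) and to 20.2 ± 0.595 with PCI-34051 (2.33, adjusted p = 2.03e-10). KIT, the stem cell factor receptor, rose from 0.670 ± 0.271 CPM to 5.11 ± 0.103 and 5.35 ± 0.814 CPM. Of 9 ligands tested, 5 were higher and 2 lower with Tubastatin A and 2 higher and 3 lower with PCI-34051. TGFA, a ligand of the EGF receptor, rose from 24.1 ± 1.45 CPM to 119 ± 3.87 with Tubastatin A (log2 fold change 2.19) and 125 ± 3.08 with PCI-34051 (2.27). In KDAC6H611A TGFA rose as well (2.00-fold, adjusted p = 0.000551). In KDAC8H143A 6 of 10 ligands were lower and 1 higher. That 1 was PDGFB, at 5.94 ± 1.46 CPM against at most 3 counts in any WT library, and MET, the hepatocyte growth factor receptor, fell from 221 ± 16.4 to 54.5 ± 21.3 CPM (-1.96, adjusted p = 1.33e-05).

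In the list of the RAS and RAF-MEK-ERK cascade, which held the RAS relatives and the kinases, 9 of 13 genes were higher and 0 lower with each inhibitor. The median log2 fold change was 0.36 with Tubastatin A and 0.37 with PCI-34051, where that of all genes tested was -0.0029 and -0.0071. RRAS, a RAS-related GTPase, rose from 12.7 ± 0.890 CPM to 39.9 ± 2.45 with Tubastatin A (log2 fold change 1.56) and 37.9 ± 1.16 with PCI-34051 (1.50), and MRAS rose by 1.80 and 1.53. In KDAC8H143A 4 of the 13 were higher and 4 lower. KSR1, a scaffold for RAF and MEK, rose in this line (1.61 ± 0.146, and 0.89 after correction for GC content and length) and in KDAC6H611A (0.71 ± 0.142), where RRAS2 was lower (-0.42, adjusted p = 0.00887). Neither KDAC6H611A call passed under total count scaling, and KSR1 did not pass there with the correction (0.58, adjusted p = 0.0107). Of the 9 activators and adaptors, 2 were higher and 1 lower with each inhibitor. PTPN11 rose by 0.34 and 0.29 (0.17 and 0.16 with the correction, the second not called, adjusted p = 0.0252), and GRB2 was -0.28 and -0.29 on the TMM scale but 0.07 and 0.09 with the total count alone. In KDAC8H143A 4 of 9 were lower, among them FRS2 and SOS1 (-0.94 and -0.78), which did not pass after the correction (-0.18 and -0.34).

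Inhibitors of RAS and ERK other than the Sprouty genes above moved both ways. With Tubastatin A 5 of 12 were higher and 5 lower, and with PCI-34051 5 and 6. RASAL2, a GTPase-activating protein for RAS, fell from 175 ± 5.27 CPM to 126 ± 1.84 (-0.59) and 111 ± 1.65 (-0.75), with log2 fold changes of -0.23 and -0.37 under total count scaling. SPRY3, the Sprouty paralog on this list, rose from 1.02 ± 0.245 CPM to 2.46 ± 0.565 and 3.01 ± 0.347 CPM, opposite to SPRY4. In KDAC6H611A the 1 gene of 12 called was RASA2, which fell (-0.92, adjusted p = 8.66e-05). In KDAC8H143A 3 of 11 were higher and 3 lower, with PEBP1, the RAF kinase inhibitor protein, at -0.94 (adjusted p = 2.43e-05) and -1.22 after the correction.

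Other genes induced by ERK did not move in 1 direction. Of 14 genes, 7 were higher and 6 lower with Tubastatin A, 5 higher and 5 lower with PCI-34051, and 6 higher and 5 lower in KDAC8H143A (3 and 8 with the correction for GC content and length, and 8 and 1, 9 and 2, and 7 and 4 in that order of comparisons under total count scaling). The transcription factors EGR1 and FOS were higher in each of these. EGR1 went from 1.63 ± 0.0269 CPM in WT cells to 11.9 ± 1.15 with Tubastatin A, 18.8 ± 5.35 with PCI-34051 and 36.6 ± 19.3 in KDAC8H143A (log2 fold changes 2.76, 3.43 and 4.53). FOS rose from 2.16 ± 0.787 CPM to 5.22 ± 1.43, 6.48 ± 0.921 and 20.8 ± 6.75 in the same order (1.20, 1.52 and 3.35). EGR1 was also the 1 gene of the 14 called in KDAC6H216A, at 12.1 ± 5.28 CPM (2.83, adjusted p = 0.00396). When any WT library, or replicate 2 or 4 of KDAC6H216A, was left out, 0 of 14 passed. Without replicate 1, 7 passed, where 3813 genes were called in all. In KDAC6H611A the ephrin receptor EPHA4 (-0.97) and the membrane protein EMP1 (-0.84, not passing under total count scaling) were lower, and 1 gene of the list was higher.

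**Figure D5:**
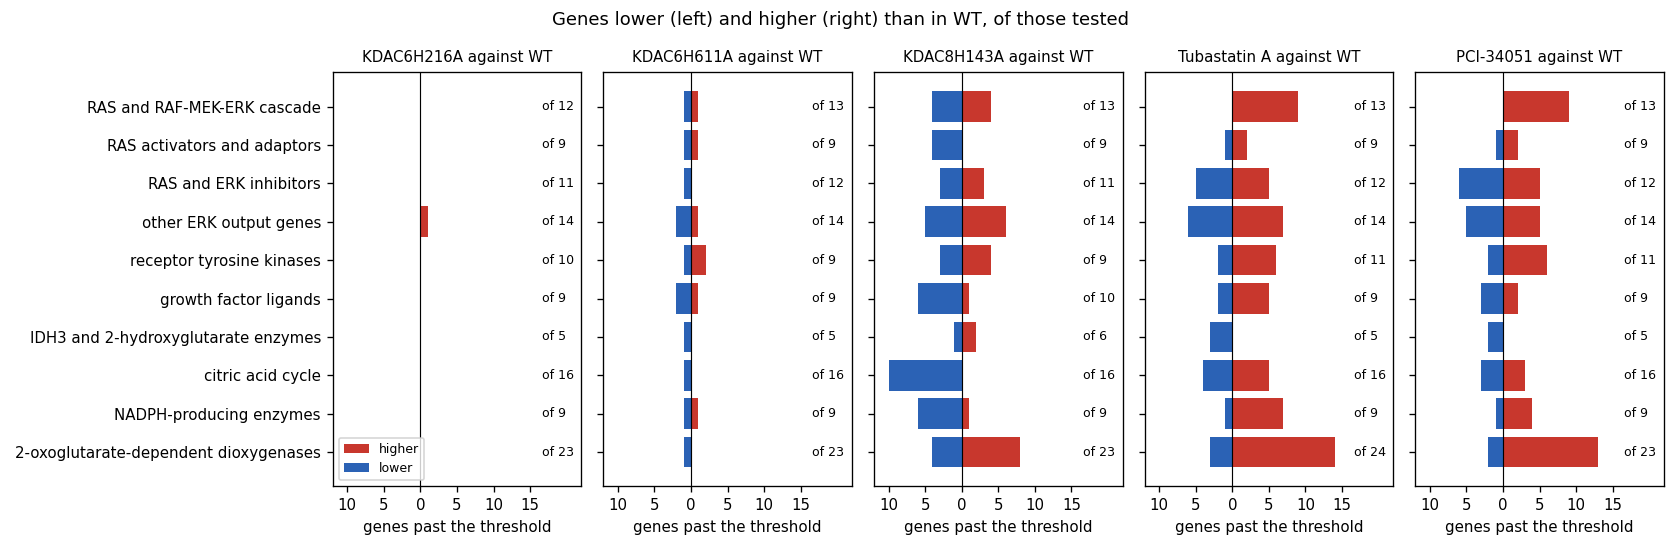
Number of genes of each of 10 lists that were higher (red, right) or lower (blue, left) than in WT at an adjusted p below 0.01, in 5 comparisons, with the number tested at the right of each row. Bars are longest with the inhibitors, where 9 of 13 cascade genes are higher and 0 lower, and the citric acid cycle has only lower genes (10 of 16) in KDAC8H143A.

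Around the isocitrate dehydrogenases, KDAC8H143A and the inhibitors again differed from WT cells. In KDAC8H143A 10 of 16 genes of the citric acid cycle were lower and 0 higher, with a median log2 fold change of -0.55. FH, fumarate hydratase, fell by 1.11 on the log2 scale and SDHD, a subunit of succinate dehydrogenase, by 1.19, and both passed after correction for GC content and length (-0.79 and -0.52). With Tubastatin A 5 of 16 were higher and 4 lower, and with PCI-34051 3 and 3. SDHC rose by 0.67 and 0.73. Of 9 genes for NADPH-producing enzymes tested, 7 were higher and 1 lower with Tubastatin A, 4 higher and 1 lower with PCI-34051, and 1 higher and 6 lower in KDAC8H143A. ME1, cytosolic malic enzyme, rose by 1.26 and 1.32 with the inhibitors and fell in KDAC8H143A (-1.78, adjusted p = 2.52e-05, and -1.11 after the correction). In KDAC6H611A ME2, the mitochondrial malic enzyme, fell (-1.05) and ALDH1L2 rose (0.93).

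Among IDH3 subunits and enzymes that form or remove 2-hydroxyglutarate, D2HGDH, which oxidises the metabolite that mutant IDH1 makes, moved in opposite directions. It went from 23.4 ± 1.55 CPM in WT cells to 12.6 ± 1.25 with Tubastatin A (2.01-fold lower, adjusted p = 1.47e-08), 15.5 ± 0.304 with PCI-34051 (-0.69, adjusted p = 2.05e-06, and -0.30 under total count scaling) and 112 ± 46.3 in KDAC8H143A (2.32, adjusted p = 1.65e-05, and 0.83 after the correction). IDH3B, a subunit of the NAD-dependent enzyme, was lower by the TMM scale with both inhibitors (-0.50 and -0.54) and in KDAC6H611A (-0.59). Under total count scaling IDH3B passed in none of these 3 comparisons (-0.15, adjusted p = 0.0443, with Tubastatin A, -0.15, adjusted p = 0.0735, with PCI-34051, and -0.57, adjusted p = 0.0889, in KDAC6H611A). In all, 3 of 5 genes of this list were lower with Tubastatin A, 2 of 5 with PCI-34051 and 1 of 5 in KDAC6H611A, with 0 higher, and 2 of 6 were higher and 1 lower in KDAC8H143A. Of the dioxygenases that use 2-oxoglutarate, 14 of 24 were higher and 3 lower with Tubastatin A and 13 of 23 higher and 2 lower with PCI-34051. P4HA1, a collagen prolyl hydroxylase, rose from 27.3 ± 2.58 CPM to 90.1 ± 2.52 (1.60) and 97.6 ± 6.87 (1.73). In KDAC8H143A 8 of 23 were higher and 4 lower, led by the histone demethylase KDM6B (2.54) and the DNA demethylase TET3 (1.80), which were 1.44 and 1.16 after the correction for GC content and length. With that correction 7 of the 23 were higher and 8 lower. In KDAC6H611A the 1 gene called of 23 was PLOD2, a collagen lysyl hydroxylase, which fell from 256 ± 16.9 to 94.1 ± 25.2 CPM (-1.42, adjusted p = 3.5e-05).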

How the data were processed

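RNA of 22 HT1080 cultures was depleted of rRNA and sequenced as read pairs. Per the labels and the study's methods, the authors trimmed reads with Trimmomatic 0.39, aligned them to GRCh38 with Bowtie2 2.4.5 and deposited RSEM 1.3.3 expected counts per gene, which are estimated and need not be whole. DESeq2 1.38.2 is also named in the submitters' processing notes. The annotation release and the strand setting are not given in the sources used here. Unused columns of values numbered 0.

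Expected counts were rounded to whole numbers and tested with edgeR 4.0.16 (R 4.3.3) for each pair of groups: TMM factors, filterByExpr, a quasi-likelihood test and Benjamini-Hochberg adjustment over all genes tested, with a threshold of 0.01. SE is the log2 fold change divided by the square root of F, and intervals are at 95%. The 5 comparisons with WT share the 4 WT libraries. DUSP6 passed the filter on low counts only between the inhibitors, so 8 of 9 genes were tested elsewhere. Levels per kb used the length of the GENCODE 44 canonical transcript, and 56558 of 60675 genes matched that release. The GC and length correction was a smooth offset per library (mgcv 1.9.3). Counts were simulated for KDAC6H216A against WT, Tubastatin A against WT and Tubastatin A against PCI-34051, not for KDAC8H143A. Without simulated GC bias, 0.585% to 1.10% of edgeR calls were false. With it, 1.64% to 1.82% of calls were false after the GC and length correction. In uncorrected DESeq2 and replicate-block fits, 95.1% to 95.9% were. The simulated bias was a set rise with GC content in the first-named group of each pair. In the data, medians in the lowest and highest GC bins were 0.012 and -0.040 in KDAC6H216A and 0.21 and -0.071 with Tubastatin A. The simulated bias thus differed from that of the data, and these shares do not give the false calls of the real fits. The main fit was not run on the biased counts. Total counts ran from 5248953 to 29862665, and 3 counts, taken as the floor, equal 0.0953 to 0.620 CPM. Floors cover counting error only. P-values measure the spread between cultures of 1 line, not between separately made lines.

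Groups came from the labels. Alternatives were DESeq2 1.42.0, upper quartile factors, total count scaling, no filter, a threshold of 0.05, all 6 groups in one fit, a replicate block, gene subsets, the correction above, and leaving out each library. The looser threshold was applied to the main fit itself, so a gene called in that fit passes it by definition. All 9 genes are named. From each pathway list and comparison with WT, at most the 2 genes with the largest change among those past the threshold and at 1 CPM or more were eligible to be named, beside the 3 genes of most like pattern per gene and genes that overlap them. A few genes that this rule or the lists cover are not reported here. The genes and lists were chosen with earlier results of these data known.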

Additional observations from a re-analysis of the deposited data

Results flagged for a closer look

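A library stood far from the other 3 of its group in 5 of 44 groups of 4 libraries examined, by Dixon's criterion, which chance meets in about 1 in 20 groups. IDH2 in WT replicate 1 was at 8.05 CPM, where the other WT libraries were at 11.6 to 11.9 CPM. IDH2 in KDAC6H216A replicate 1 was at 6.50 CPM, against 11.4 to 12.2 CPM in the others. The same KDAC6H216A library held 0.195% mitochondrial rRNA (others 13.1% to 15.1%) and a total count of 6837390 (others 10948459 to 11737835). KDAC8H143A replicate 2 had a total count of 17170473, where the others had 11010719 to 11817852. That library also held the most NRAS of its group, 36.7 CPM.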

How the results depend on the processing

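In the alternative settings, 1049 fold changes of the 9 genes were set against the main fit. Of these, 972 kept their direction or side of the threshold, 38 no longer passed, 28 newly passed and 11 turned. The 972 include 42 that changed sign but passed the threshold in neither fit. Among the 1049 is also the main fit read at a looser threshold, which holds no new fold change. The causes were not tested. In KDAC8H143A, the GC and length correction turned HRAS to -0.737 and ETV4 to -0.118, and with the replicate block added to -0.744 and -0.119. Total count scaling turned IDH1, SPRY2 and ETV4 to 0.250, 0.164 and 0.0599 with Tubastatin A and to 0.116, 0.251 and 0.0787 with PCI-34051. NRAS with Tubastatin A was -0.0182 under the correction with the replicate block.

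Counts of the genes called moved as follows. Except for libraries left out, calls over all genes in the same setting are not given beside them. These counts are therefore not set against genes at large. Total count scaling gave 1 in KDAC6H216A (0 otherwise). One fit of all 6 groups gave 1 in KDAC6H611A, 1 with Tubastatin A, 1 with PCI-34051 and 2 between the KDAC6 lines. Between those lines DESeq2, no filter, protein-coding genes only and a threshold of 0.05 each gave 1, and the last gave 2 between the inhibitors. Leaving out a library gave 0 to 2 in KDAC6H216A, 0 to 1 in KDAC6H611A, 3 to 6 in KDAC8H143A (3 without WT replicate 4 or KDAC8H143A replicate 1), 2 to 5 with PCI-34051 (2 without WT replicate 2) and 0 to 1 between the KDAC6 lines. In the same order, calls over all genes ran from 28 to 3813, 1122 to 2908, 8186 to 10520, 7043 to 7686 and 772 to 3041.

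Replicate numbers did not pair the libraries throughout. Correlations of deviations between libraries of the same number ran from -0.243 to 0.427 across comparisons with WT, and the fit with the replicate block called 0, 0, 5, 5 and 4 genes in KDAC6H216A, KDAC6H611A, KDAC8H143A, Tubastatin A and PCI-34051. The share of all genes called in that fit is not given here. Depth limits DUSP6, with 3 to 7 counts in each WT library.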
